A study of Mus musculus with 32 samples.

Results

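The comparison described here is the difference between genotypes in how gene expression changed over the first 120 min of FGF stimulation, that is, the change in KO cells minus the change in WT cells. It rests on 14 of the series' 32 arrays: 3 KO arrays at 120 min, 4 KO arrays at 0 min, 3 WT arrays at 120 min and 4 WT arrays at 0 min. KO cells are immortalized mouse embryonic fibroblasts lacking Spry1, Spry2 and Spry4 (Spry124-/-), and WT cells are immortalized fibroblasts that carry the same genes as floxed alleles and are labelled as having wild-type Sprouty expression (Spry124fl/fl). All 4 groups had been serum-starved in DMEM with 0.2% BSA. FGF was then given for 120 min, or not at all for the 0 min cells; which FGF and which dose are not stated in the labels. The labels name neither the way the alleles were recombined nor the number of lines behind each genotype, so a difference between genotypes cannot be told apart from a difference between lines. No arrays of unstimulated cells held for 120 min are among the samples, so time in culture and handling cannot be told apart from FGF.

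FGF receptors signal through Ras and the kinases Raf, MEK and ERK, which switch on immediate early transcription factors and then a second wave of secreted factors and inhibitors. Sprouty proteins are themselves induced by this pathway and restrain it, so they act as feedback inhibitors. By 120 min the first wave of immediate early genes has usually passed its peak in fibroblasts, while cytokine, protease and growth factor genes are still being transcribed.

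RNA was measured on Illumina mouse bead arrays, and levels are given as normalized log2 intensities, on which 1 unit is a 2-fold change. On the 14 arrays, 11319 to 12332 of 25697 probes were detected (detection p below 0.05), and each array correlated with the others of its group at a median r between 0.992 and 0.995. Replicates are described as biological, with no word on whether the cultures were separate; p-values thus cover the spread between these arrays, which may be technical. Fewer cells of one kind and less RNA per cell cannot be told apart in these bulk samples. As a check on the labels, the deleted genes gave little to read. The 2 probes of Spry1 and the 1 probe of Spry2 were each detected on no more than 1 array of any of the 4 groups, in KO and WT alike, and were not tested. Spry4 read 5.17, 5.04 and 5.35 in KO at 120 min, against 4.89, 4.78, 4.70 and 4.60 in KO at 0 min, and 6.03, 6.05 and 6.31 in WT at 120 min, against 5.37, 5.77, 5.50 and 5.16 in WT at 0 min. Its level was therefore lower on each KO array than on each WT array of the same time, but its probe was still detected on all 3 KO arrays at 120 min. Whether the probe lies in the deleted part of the gene is not annotated in the sources used here. The Spry4 responses differed by -0.23 ± 0.20 (standard error; adjusted p = 0.613, 95% interval -0.65 to 0.18). Spry3 is not among the deleted genes named in the labels, yet it was not well above background on any of the 7 KO arrays. It read 6.63, 6.81 and 6.86 in WT at 120 min, against 6.57, 6.14, 6.38 and 6.53 in WT at 0 min, at least 3.58-fold higher in WT than in KO at 120 min. Of 13 fibroblast marker genes tested, 12 were detected on every array of each of the 4 groups and none had a called difference of responses.

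Of 10903 genes tested, 1.86% had a response that differed between genotypes at a Benjamini-Hochberg adjusted p below 0.05 in limma, and are referred to as called. The KO response was higher for 109 (1.0%) and lower for 94 (0.862%). Counts within gene lists below are to be read beside these shares. The lists were chosen with earlier results of these data known. At an unadjusted p below 0.05 the number was 1723. The median difference over all tested genes was -0.01. Among the genes with a higher response were genes of secreted factors: the colony-stimulating factor gene Csf2, the IL-6 family cytokines Lif, Il6 and Il11, and the EGF receptor ligand Hbegf. With them came the JAK-STAT feedback inhibitors Socs3 and Cish, the proteases Mmp13 and Mmp10, and the transcription factors Atf3, Egr1, Junb and Klf5. Among the genes with a lower response were the vasoconstrictor peptide gene Edn1, the calcium-binding protein gene Efhd1, the chemokine Ccl7 and the receptor gene Lpar6. Of 19 tested genes of the G1/S transition and DNA replication, Pcna, Mcm4 and Mcm6 were also lower, and each of these 3 calls was lost when some single arrays were left out. The difference was more than 2-fold for 25 of the 109 genes and for 5 of the 94.

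Each of these differences is built from a response in KO and a response in WT that use the same arrays, so the values below describe its parts and add no separate evidence. KO cells changed 1654 genes (15.2%) over 120 min and WT cells 438 (4.02%). Among the 109 genes with a higher response the median KO response was 0.69 and the median WT response -0.05; among the 94 with a lower response the medians were -0.49 in KO and 0.10 in WT. In the higher set, 70 genes passed the test of the KO response alone, all of them upward, 19 rose in both genotypes with the larger rise in KO, 10 passed in WT alone, all downward, 4 rose in KO and fell in WT, and 6 passed in neither. In the lower set, 60 genes passed in KO alone, all downward, 15 passed in WT alone, all upward, 8 fell in both, 1 (the ceramidase gene Acer2) rose in both, 1 fell in KO and rose in WT, and 9 passed in neither. Thus most called genes were ones that moved in KO, up or down, while WT moved less. Acer2 was named after its values were seen.

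**Figure D1:**
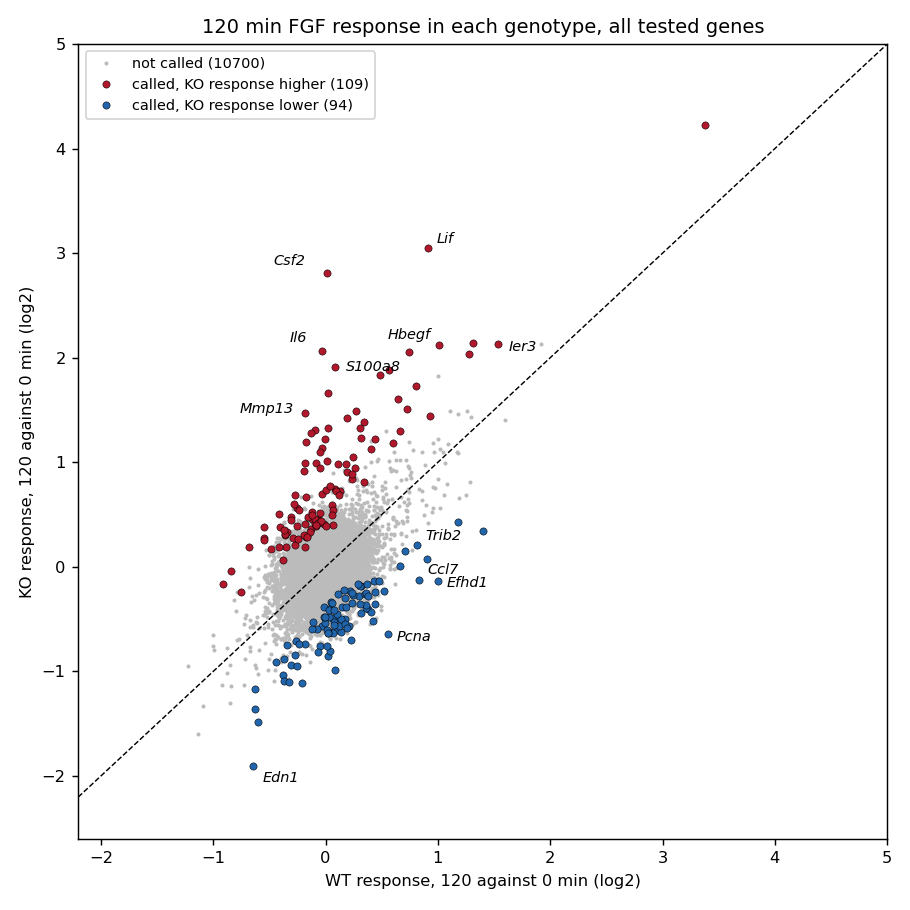
KO response (y axis) and WT response (x axis) at 120 min against 0 min, in log2 units, for 10903 genes. Points on the dashed line responded equally; the 109 red genes lie above it and the 94 blue genes below it, and Csf2, Il6 and S100a8 sit near 0 on the WT axis.

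Before FGF the genotypes already differed at 4995 genes (45.8%), and at 120 min they differed at 4775 (43.8%). Of the called genes, 135 had a called gap at 0 min and 173 had one at 120 min. The gap between KO and WT was wider at 120 min for 145 of them and narrower for 58. Over all tested genes it was wider for 6046 and narrower for 4857. The called genes were chosen by the change of this same gap. The gap of Hbegf narrowed and that of Csf2 widened, as described below.

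Csf2 encodes GM-CSF, a growth factor for myeloid cells. It read 7.38, 7.40 and 7.40 in KO at 120 min, against 4.65, 4.46, 4.62 and 4.58 in KO at 0 min, and 4.53, 4.40 and 4.65 in WT at 120 min, against 4.41, 4.54, 4.64 and 4.46 in WT at 0 min. The KO arrays at 120 min stood far above all others, and the other 3 groups overlapped. No array of those 3 groups was well above background, so the rise in KO was at least 5.78-fold, and the KO level at 120 min was at least 5.55-fold above WT. The fitted difference of responses was 2.80 ± 0.23 (adjusted p = 1.67e-08); because the other 3 groups lie in the background it is not a bound. Csf3, which encodes G-CSF, was likewise detected in KO at 120 min alone among the 4 groups. There it read 5.58, 6.53 and 5.85, at least 2.19-fold above KO at 0 min. Its fitted difference was 1.31 ± 0.24 (adjusted p = 0.00215), and it missed the threshold on the authors' own processed values. Of 19 chemokine, cytokine and colony-stimulating factor genes tested, Csf2 and Csf3 had a higher response and Ccl7 a lower one, with a list median of -0.03.

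Among the IL-6 family, its receptors and the Socs inhibitors, 6 of 14 tested genes had a higher response and none a lower one. The list median was 0.32, and it lay 0.27 to 0.51 above the median of all genes under each scaling tried; scaling by the median of all probes called 1 member lower. Lif, a cytokine that signals through the shared gp130 receptor chain to STAT factors, read 8.41, 8.27 and 8.29 in KO at 120 min, against 5.33, 5.38, 5.17 and 5.22 in KO at 0 min, and 6.01, 5.80 and 5.60 in WT at 120 min, against 4.72, 5.07, 4.63 and 5.14 in WT at 0 min. It rose in both genotypes, and the KO arrays at 120 min lay above every WT array. Its responses differed by 2.14 ± 0.22 (adjusted p = 5.62e-07), a 4.40-fold larger rise in KO. Il6 read 6.72, 6.96 and 7.07 in KO at 120 min, against 4.84, 5.07, 4.64 and 4.88 in KO at 0 min, and 4.64, 5.26 and 5.09 in WT at 120 min, against 5.27, 4.89, 4.80 and 5.16 in WT at 0 min. The WT arrays of both times overlapped, and so did KO at 0 min; the KO arrays at 120 min lay apart from all of them. The difference was 2.10 ± 0.22 (adjusted p = 7.95e-07). Il6 was detected on 1 of 4 KO arrays at 0 min and on 4 of 7 WT arrays, so the lower levels are near the detection limit, and on the authors' processed values it missed the threshold.

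Il11, a cytokine of the same family, began lower in KO and ended higher. It read 7.90, 8.17 and 7.95 in KO at 120 min, against 6.28, 6.33, 5.96 and 6.11 in KO at 0 min, and 7.37, 6.89 and 7.20 in WT at 120 min, against 6.68, 6.68, 6.77 and 6.55 in WT at 0 min. The gap between KO and WT was 0.86 ± 0.13 at 120 min, against -0.50 ± 0.12 at 0 min, and the responses differed by 1.36 ± 0.18 (adjusted p = 2.15e-05). Clcf1, a ligand of the CNTF receptor complex, read 6.29, 6.32 and 6.82 in KO at 120 min, against 5.83, 5.06, 5.50 and 5.56 in KO at 0 min, and 5.24, 5.40 and 5.38 in WT at 120 min, against 5.46, 5.74, 5.45 and 5.46 in WT at 0 min. Its KO arrays at 120 min lay above all others, with a difference of 1.17 ± 0.22 (adjusted p = 0.00241). It was 0.68 with the mean of the gene's probes (adjusted p = 0.0375) and 0.74 when 50 in place of 16 was added after background correction (offset 50).

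The called inhibitors of cytokine signalling also had a higher response in KO. A link between them and these ligands was not tested. Socs3, a STAT target that blocks gp130-linked JAK kinases, read 9.04, 9.03 and 9.25 in KO at 120 min, against 7.69, 7.94, 7.98 and 7.70 in KO at 0 min, and 7.41, 7.41 and 7.50 in WT at 120 min, against 7.54, 7.70, 7.40 and 7.65 in WT at 0 min. It rose in KO, and its small WT change did not pass the test (WT response -0.13 ± 0.09, adjusted p = 0.54). The difference was 1.41 ± 0.13 (adjusted p = 5.06e-08). Cish, another member of the Socs family, read 7.99, 8.24 and 8.0 in KO at 120 min, against 7.12, 7.24, 7.22 and 7.05 in KO at 0 min, and 6.79, 6.98 and 6.76 in WT at 120 min, against 7.04, 7.01, 7.03 and 7.07 in WT at 0 min. Its arrays were tight in each group, and the KO arrays at 120 min stood clear of the rest (difference 1.11 ± 0.12, adjusted p = 7.67e-07).

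**Figure D2:**
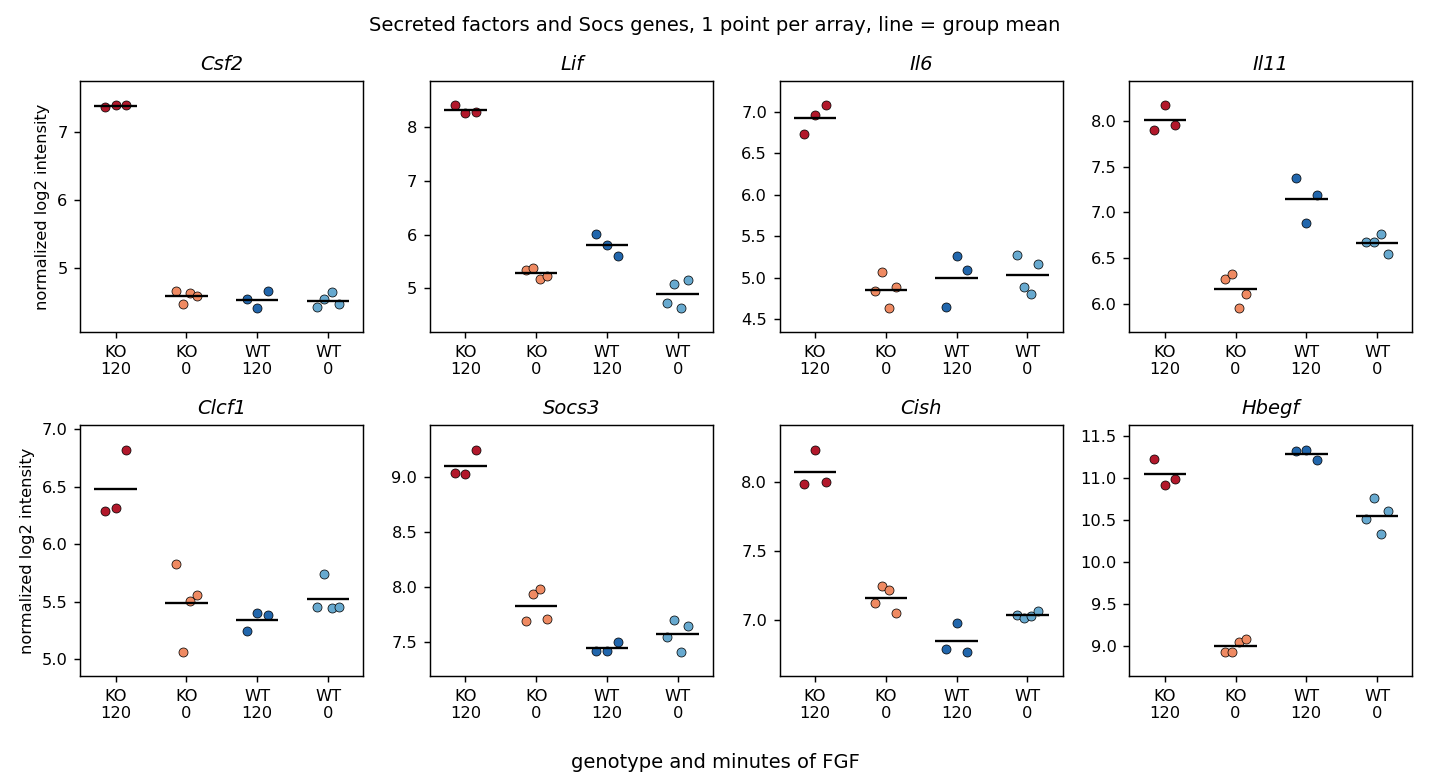
Normalized log2 intensity of 8 genes on each of the 14 arrays, with genotype and minutes of FGF on the x axis; 1 point is 1 array and the line is the group mean. KO at 120 min is the highest group for every gene but Hbegf, where WT at 120 min is as high or higher.

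The promoters of several of these genes hold matches to the AP-1 motif TGANTCA, bound by Fos and Jun proteins, or to the STAT motif TTCNNNGAA. They are shown because Lif, Il6 and Mmp13 carry the largest differences among genes with an AP-1 match here, and because Socs3 and Cish are known STAT targets. Each sequence is RefSeq's (GRCm38.p6), covers 250 bases before the annotated start to 50 after it, and is written 5′ to 3′ on the gene's own strand with the match in capitals. The motif is AP-1 for Lif (chr11:4257318-4257617, plus strand), Il6 (chr5:30012864-30013163, plus strand) and Mmp13 (chr9:7272264-7272563, plus strand), and STAT for Socs3 (chr11:117969317-117969616, minus strand) and Cish (chr9:107296409-107296708, plus strand).
Lif: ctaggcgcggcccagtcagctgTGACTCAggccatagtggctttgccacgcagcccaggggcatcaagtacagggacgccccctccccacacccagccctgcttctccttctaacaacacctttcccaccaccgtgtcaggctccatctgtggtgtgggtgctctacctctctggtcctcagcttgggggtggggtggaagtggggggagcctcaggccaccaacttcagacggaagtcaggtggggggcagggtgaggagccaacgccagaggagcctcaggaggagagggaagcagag
Il6: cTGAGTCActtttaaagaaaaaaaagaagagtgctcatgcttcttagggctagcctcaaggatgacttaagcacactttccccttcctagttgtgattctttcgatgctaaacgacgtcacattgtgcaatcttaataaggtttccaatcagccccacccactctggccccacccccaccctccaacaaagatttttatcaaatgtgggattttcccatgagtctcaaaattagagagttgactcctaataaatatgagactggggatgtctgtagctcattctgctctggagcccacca
Mmp13: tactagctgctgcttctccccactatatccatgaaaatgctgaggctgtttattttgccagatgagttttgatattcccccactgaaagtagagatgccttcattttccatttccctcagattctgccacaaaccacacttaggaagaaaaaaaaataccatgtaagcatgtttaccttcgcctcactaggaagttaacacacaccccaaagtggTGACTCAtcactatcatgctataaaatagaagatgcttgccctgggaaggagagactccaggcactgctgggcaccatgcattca
Socs3: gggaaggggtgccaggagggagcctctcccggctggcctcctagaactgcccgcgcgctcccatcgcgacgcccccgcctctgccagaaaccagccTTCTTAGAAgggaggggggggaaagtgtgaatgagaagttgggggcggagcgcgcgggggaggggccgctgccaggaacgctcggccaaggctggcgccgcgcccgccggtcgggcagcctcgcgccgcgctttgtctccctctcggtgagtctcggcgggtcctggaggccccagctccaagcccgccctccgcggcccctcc
Cish: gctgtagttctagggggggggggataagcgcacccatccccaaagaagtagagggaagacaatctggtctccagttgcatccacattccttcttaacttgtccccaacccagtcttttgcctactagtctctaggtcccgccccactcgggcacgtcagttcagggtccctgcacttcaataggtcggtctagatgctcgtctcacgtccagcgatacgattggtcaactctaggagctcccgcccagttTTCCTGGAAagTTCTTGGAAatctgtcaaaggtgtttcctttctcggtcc

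In Mmp13 the AP-1 match began 35 bases before the start, in Lif 228 and in Il6 249. Promoters were found for 156 of the called genes. Counted on both strands, TGANTCA occurred in 17% of the 112 promoters of genes with a higher response, in 6.82% of the 88 promoters of genes with a lower response, in 5.95% of the promoters of tested genes and in 7.81% of all 32851 promoters. By gene, it was in 16 of 81 genes with a higher response (19.8%) and in 7.16% of tested genes. TTCNNNGAA occurred in 8.93% of promoters of the higher genes, 12.5% of those of the lower genes, 7.02% of those of tested genes and 8.3% of all promoters. Of 10 motifs searched, the other 8 gave these shares for promoters of higher, lower and tested genes and for all promoters. The cyclic AMP response element TGACGTCA was in 2.68%, 2.27%, 2.91% and 1.79%, and its core CGTCA, which it contains, in 37.5%, 23.9%, 29.4% and 20.8%. The EGR motif GCGGGGGCG was in 4.46%, 3.41%, 5.08% and 2.91%, and the ETS motif CCGGAAGT in 3.57%, 9.09%, 7.42% and 3.89%. The E2F motif TTTCCCGC was in none, 3.41%, 1.68% and 1.07%, and TTTGGCGC in none, 2.27%, 0.81% and 0.514%. The NF-kappaB motif was in 8.93%, 7.95%, 5.18% and 4.51%, and the CArG box in 4.46%, 1.14%, 1.42% and 1.63%, the first of these coming from 2 of 81 genes. Some genes have several overlapping promoters in the table, and a match is not a measured site.

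Several single growth factor genes had a called difference. Hbegf, a ligand of the EGF receptor, read 11.23, 10.92 and 10.99 in KO at 120 min, against 8.93, 8.93, 9.05 and 9.08 in KO at 0 min, and 11.33, 11.34 and 11.22 in WT at 120 min, against 10.51, 10.77, 10.33 and 10.61 in WT at 0 min. It began lower in KO on every array, rose in both genotypes and nearly caught up. The gap was -0.24 ± 0.10 at 120 min, against -1.56 ± 0.09 at 0 min, and the responses differed by 1.31 ± 0.13 (adjusted p = 3.83e-07). Pdgfb, a platelet-derived growth factor chain, differed by 0.78 ± 0.17 (adjusted p = 0.00929), and it was the only called gene of 15 tested in the list of EGF family genes and other growth factor receptors, whose median was -0.09; the Pdgfb call was lost on the authors' processed values. Inhba, which encodes the activin beta A chain, averaged 9.25 ± 0.10 in KO at 120 min, against 8.51 ± 0.07 in KO at 0 min (SD, n = 3 and 4), and 8.52 ± 0.12 in WT at 120 min, against 8.52 ± 0.18 in WT at 0 min. It rose in KO with no called change in WT (difference 0.73 ± 0.15, adjusted p = 0.00607), a call lost with scaling by the median of all probes (0.34, adjusted p = 0.157), while Inhbb, the beta B chain, had the opposite difference, -0.50 ± 0.13 (adjusted p = 0.0367). Leaving out any of 8 single arrays, or fitting the 14 arrays alone, ended the Inhbb call.

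Of 18 FGF ligand, receptor and adaptor genes tested, 2 had a called difference. Flrt3, a membrane protein that binds FGF receptors, read 5.91, 5.97 and 6.34 in KO at 120 min, against 5.16, 5.07, 4.92 and 5.14 in KO at 0 min, and was not well above background on any of the 7 WT arrays. Its level in KO at 120 min was at least 2.22-fold above WT, and the fitted difference was 1.08 ± 0.15 (adjusted p = 9.76e-05; lost on the authors' processed values). Fgf5 reached the threshold through WT alone: it was not well above background on any KO array and read 8.37, 8.39 and 8.46 in WT at 120 min, against 8.90, 8.77, 8.69 and 8.78 in WT at 0 min. The positive sign of its fitted difference (0.44 ± 0.10, adjusted p = 0.0203) thus stands for a fall in WT against an undetected gene in KO. The Fgf5 call was lost on the authors' processed values, with the 14 arrays alone, with the intensity trend and without any of 3 single arrays. No FGF receptor passed the test.

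Of 20 matrix proteases and inhibitors tested, 4 had a higher response and none a lower one. The list median was 0.15, between 0.09 and 0.21 above that of all genes under each setting listed for the IL-6 family. Scaling by the median of all probes nevertheless called 3 members lower. Mmp13, an interstitial collagenase whose promoter is among those shown, read 6.53, 6.89 and 6.48 in KO at 120 min, against 5.23, 5.25, 4.97 and 5.17 in KO at 0 min. It was not well above background on any WT array at 120 min, which puts the KO level at that time at least 3.27-fold higher (fitted difference 1.66 ± 0.19, adjusted p = 1.76e-06). With the mean of the gene's probes the Mmp13 difference was 0.88 (adjusted p = 9.96e-05). Mmp10, a stromelysin, read 7.84, 8.07 and 7.81 in KO at 120 min, against 6.40, 5.96, 5.92 and 5.81 in KO at 0 min, and 5.64, 4.99 and 5.74 in WT at 120 min, against 4.63, 5.10, 5.04 and 4.82 in WT at 0 min. Its lowest KO array at 120 min lay above every array of the other groups, and the rise in KO was larger by 1.32 ± 0.22 (adjusted p = 9.11e-04; above the threshold on the authors' processed values). Serpinb2, an inhibitor of plasminogen activators, was detected in KO at 120 min alone among the 4 groups, at least 1.75-fold above KO at 0 min (fitted difference 1.23 ± 0.14, adjusted p = 3.51e-06). Ctsk, the collagen-degrading cathepsin K, was not well above background in WT at either time and rose modestly in KO, by 0.47 ± 0.10 (difference 0.63 ± 0.14, adjusted p = 0.0105; lost on the authors' processed values and with scaling by the median of all probes).

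Among 21 immediate early transcription factors tested, 7 had a higher response and none a lower one. The list median of 0.29 lay 0.19 to 0.44 above that of all genes under each setting listed for the IL-6 family. Atf3, a stress-induced repressor of the ATF/CREB family, read 8.34, 7.93 and 8.10 in KO at 120 min, against 5.91, 6.11, 6.04 and 5.96 in KO at 0 min, and 7.95, 7.66 and 7.41 in WT at 120 min, against 6.49, 6.48, 7.10 and 6.58 in WT at 0 min. Its KO arrays lay below every WT array at 0 min, whereas at 120 min the genotypes overlapped, and the rise was larger in KO by 1.11 ± 0.18 (adjusted p = 6.83e-04). Egr1, a zinc-finger factor induced by ERK through Elk1 and SRF, read 12.04, 11.86 and 12.26 in KO at 120 min, against 10.20, 10.94, 10.96 and 10.54 in KO at 0 min, and 11.62, 11.85 and 11.66 in WT at 120 min, against 11.38, 11.60, 11.10 and 11.38 in WT at 0 min. Its rise in KO was 1.39 ± 0.15, against 0.35 ± 0.15 in WT, a difference of 1.04 ± 0.22 (adjusted p = 0.00811). Fitted on the 14 arrays at 0 and 120 min alone, Egr1 missed the threshold. Junb, an AP-1 subunit, rose in both genotypes and by 0.97 ± 0.14 more in KO (adjusted p = 1.84e-04). It read 10.07, 9.86 and 10.15 in KO at 120 min, against 8.91, 8.94 and 8.71 in WT at that time, with no overlap. Csrnp1, an early-induced nuclear protein, rose by 1.31 ± 0.11 in KO, against -0.10 ± 0.11 in WT (difference 1.40 ± 0.15, adjusted p = 7.95e-07). Klf5, a Krüppel-like factor, belonged to no list and differed by 1.02 ± 0.12 (adjusted p = 6.00e-06).

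In the list of genes that report or restrain ERK output, 7 of 21 tested genes had a higher response and none a lower one, with a median of 0.20. That median lay 0.17 to 0.26 above that of all genes under each setting listed for the IL-6 family. Scaling by the median of all probes called 2 members lower. The 7 include Lif, Il11 and Hbegf, already described. Rgs16, an activator of G-protein GTPase activity, rose in both genotypes, by 2.14 ± 0.12 in KO, against 1.31 ± 0.12 in WT (difference 0.82 ± 0.16, adjusted p = 0.00489; 0.45 and 0.0642 with scaling by the median of all probes). Arc, an early gene also expressed outside neurons, differed by 0.92 ± 0.17 (adjusted p = 0.00328), but by 0.03 on the authors' processed values (adjusted p = 0.992). Of 9 MAP kinase phosphatases tested, Dusp10, which acts on the stress kinases, and Dusp4, a nuclear phosphatase of ERK, had a higher response. Dusp10 read 6.30, 6.12 and 6.22 in KO at 120 min, against 5.78, 5.61, 5.37 and 5.35 in KO at 0 min, and 4.95, 5.22 and 5.06 in WT at 120 min, against 5.59, 5.21, 5.55 and 5.05 in WT at 0 min, a difference of 0.96 ± 0.21 (adjusted p = 0.0132). Fitted on the 14 arrays alone it was 0.56 and missed the threshold (adjusted p = 0.197), and with offset 50 it was 0.58 (adjusted p = 0.00634). For Dusp4 the difference was 0.81 ± 0.18 (adjusted p = 0.0161), and leaving out WT 120 min replicate B raised that p to 0.0524; the call was also lost on the authors' processed values. None of the 4 Sprouty and Spred genes tested, and none of the 14 NF-kappaB subunits and inhibitors tested, had a called difference.

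Several other genes with a large difference belong to no single pathway. S100a8, which encodes a calcium-binding alarmin of myeloid cells, read 7.62, 7.98 and 7.87 in KO at 120 min, against 5.86, 5.88, 5.98 and 5.94 in KO at 0 min, and was not well above background on any WT array. Its level in KO at 120 min was at least 7.48-fold above WT, and the fitted difference was 1.83 ± 0.15 (adjusted p = 1.67e-08). Beside it, 3 of 12 macrophage and leukocyte markers were tested (Cd14, Lyz1 and Lyz2) and none had a called difference. Their summed linear level was 401 to 478 in KO at 120 min, against 333 to 409 in KO at 0 min, and 177.8 to 202.8 in WT at 120 min, against 148 to 223 in WT at 0 min; their part in the result was not tested. Apobec1, a cytidine deaminase that edits RNA, read 7.67, 7.93 and 7.79 in KO at 120 min, against 6.0, 6.28, 6.09 and 6.17 in KO at 0 min, and 4.94, 5.34 and 5.12 in WT at 120 min, against 4.998, 5.58, 5.11 and 4.75 in WT at 0 min. It rose in KO by 1.66 ± 0.17, against 0.02 ± 0.17 in WT (difference 1.64 ± 0.24, adjusted p = 9.96e-05). Ccn2, a matricellular protein gene, was the only called gene of 9 in the YAP and Ccn list (difference 0.78 ± 0.16, adjusted p = 0.00607). Mdm2, the ubiquitin ligase that acts on p53, moved in opposite directions: it rose in KO, with a response of 0.35 ± 0.09, and fell in WT, with a response of -0.37 ± 0.09 (difference 0.72 ± 0.12, adjusted p = 0.00115). Ccng2, a cyclin expressed in quiescent cells, was called because it fell in WT, where the response was -0.92 ± 0.12, against -0.17 ± 0.12 in KO. Its difference was 0.75 ± 0.17 (adjusted p = 0.0132), and without WT 120 min replicate B that p was 0.0512, and with scaling by the median of all probes 0.151.

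**Figure D3:**
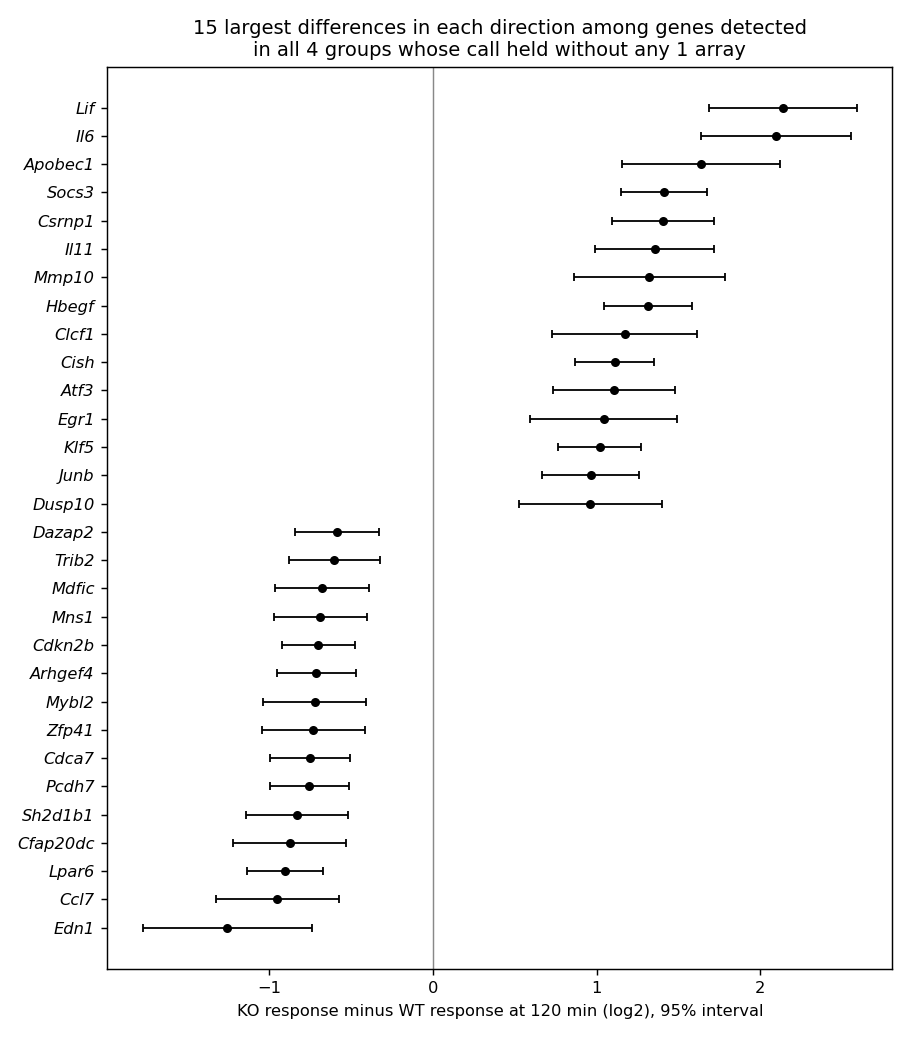
KO response minus WT response at 120 min (x axis, log2) for the 15 largest positive and 15 largest negative differences among called genes detected in all 4 groups whose call held without any single array; bars are 95% intervals. Lif and Il6 have the largest positive values and Edn1 the largest negative one. No interval reaches 0, which follows from plotting only called genes.

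On the other side, Edn1, which encodes endothelin-1, lost its higher KO level. It read 4.68, 4.76 and 5.05 in KO at 120 min, against 6.64, 6.53, 7.16 and 6.59 in KO at 0 min, and 4.59, 4.67 and 5.40 in WT at 120 min, against 5.67, 5.54, 5.66 and 5.26 in WT at 0 min. All KO arrays lay above all WT arrays at 0 min, and the genotypes overlapped at 120 min, when Edn1 was detected on 1 of 3 KO arrays and 1 of 3 WT arrays. The difference was -1.26 ± 0.25 (adjusted p = 0.00546). On the authors' processed values it missed the threshold. With both genotypes near the background at 120 min, how far each fell is not resolved, and the fitted value is not a bound. Ccl7, a monocyte-attracting chemokine, read 13.21, 13.33 and 13.28 in KO at 120 min, against 13.37, 13.41, 13.28 and 13.52 in KO at 0 min, and 11.12, 10.96 and 11.19 in WT at 120 min, against 10.09, 10.33, 10.50 and 10.11 in WT at 0 min. The KO arrays of both times overlapped at a level far above WT, and WT rose with no overlap (difference -0.95 ± 0.18, adjusted p = 0.00361). Lpar6, a receptor for lysophosphatidic acid, fell in KO by more than in WT. It read 8.25, 8.38 and 8.06 in KO at 120 min, against 9.38, 9.34, 9.39 and 9.25 in KO at 0 min, and 8.95, 8.88 and 8.99 in WT at 120 min, against 9.21, 9.12, 9.09 and 9.17 in WT at 0 min (difference -0.90 ± 0.11, adjusted p = 9.09e-06).

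Genes of the G1/S transition and of DNA replication gave 3 lower and no higher responses among 19 tested, with a list median of -0.33. Relative to the median of all genes it stood between -0.20 and -0.33 under each setting listed for the IL-6 family. Pcna, the sliding clamp of DNA polymerases, read 6.37, 6.63 and 6.78 in KO at 120 min, against 7.37, 7.21, 6.74 and 7.63 in KO at 0 min, and 7.39, 7.78 and 7.63 in WT at 120 min, against 7.07, 6.79, 7.07 and 7.26 in WT at 0 min. It fell in KO, while the WT change in the other direction did not pass the test (WT response 0.55 ± 0.20, adjusted p = 0.138). The difference was -1.20 ± 0.29 (adjusted p = 0.0237), and leaving out any of 5 single arrays ended the call. Mcm4 and Mcm6, subunits of the replicative helicase, differed by -0.51 ± 0.12 (adjusted p = 0.0236) and -0.63 ± 0.16 (adjusted p = 0.0367). Those calls ended without any of 4 single arrays for Mcm4 and any of 12 for Mcm6, and for Mcm4 also with the 14 arrays alone and with the mean of its probes. Mybl2, a cell-cycle transcription factor, read 6.31, 6.48 and 6.30 in KO at 120 min, against 6.99, 6.80, 6.70 and 7.16 in KO at 0 min, and 7.18, 7.30 and 6.99 in WT at 120 min, against 7.02, 6.73, 7.04 and 7.13 in WT at 0 min. Its KO arrays at 120 min lay below all others (difference -0.72 ± 0.15, adjusted p = 0.0089), but another of its probes had a difference of the opposite sign. With the mean of its probes Mybl2 was at -0.27 (adjusted p = 0.316), and with the 14 arrays alone its adjusted p was 0.0536. Cdca7, a nuclear protein induced in cycling cells, read 8.50, 8.47 and 8.27 in KO at 120 min, against 9.39, 9.16, 9.05 and 9.33 in KO at 0 min, and 9.36, 9.26 and 9.29 in WT at 120 min, against 9.32, 9.37, 9.46 and 9.32 in WT at 0 min, with a difference of -0.75 ± 0.12 (adjusted p = 4.37e-04). Lig1, Uhrf1, Timeless, Blm and Msh6, chosen after their values were seen, also act in DNA replication or repair and had lower responses, by -0.77, -0.63, -0.65, -0.66 and -0.45. Picked by their values, they add no separate evidence. Of the 94 lower calls, 27 held without any single array. Cdkn2b, an inhibitor of the cyclin D kinases and thus a gene of opposite role, also had a lower response. It read 9.11, 8.97 and 8.94 in KO at 120 min, against 9.65, 9.63, 9.66 and 9.62 in KO at 0 min, and 8.70, 8.58 and 8.63 in WT at 120 min, against 8.55, 8.54, 8.76 and 8.44 in WT at 0 min (difference -0.70 ± 0.11, adjusted p = 3.24e-04).

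**Figure D4:**
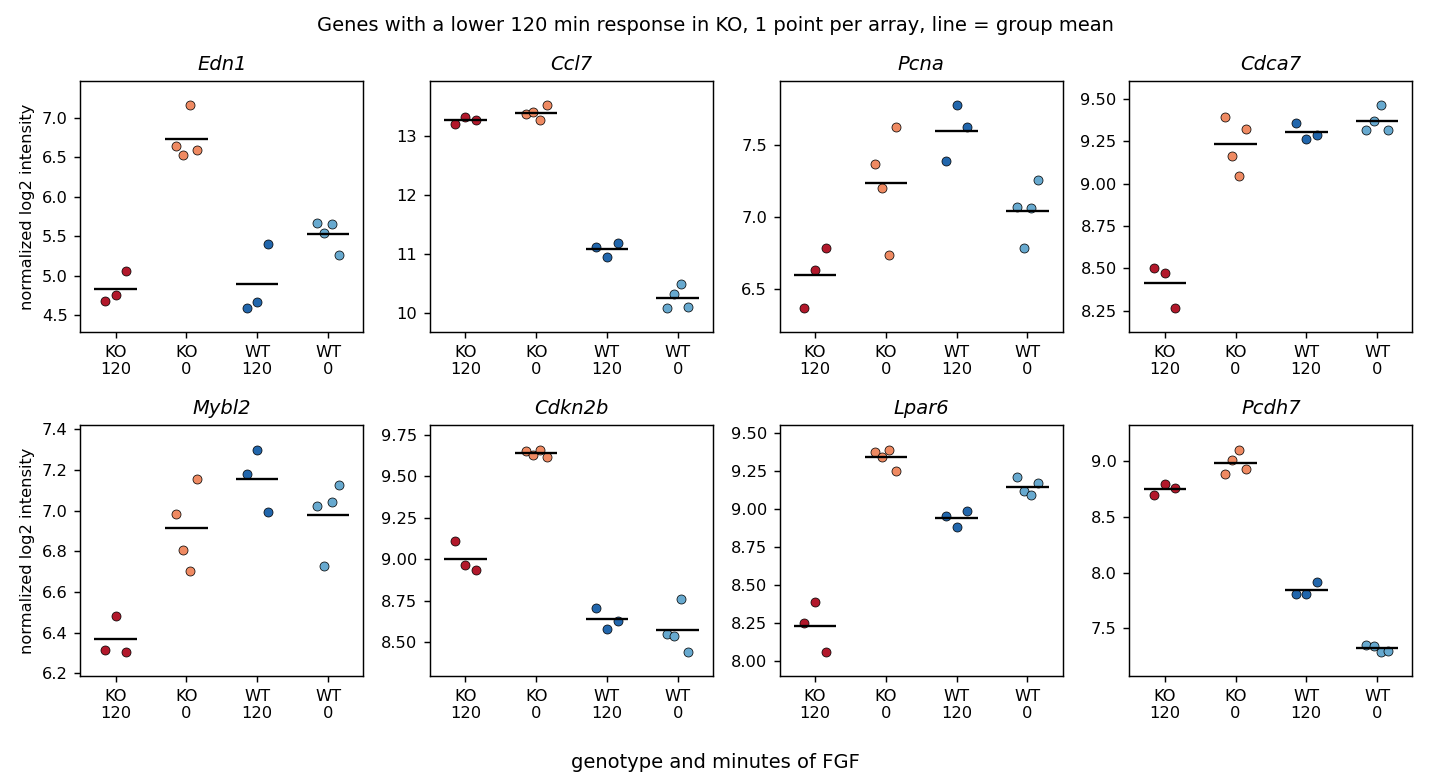
Normalized log2 intensity on each of the 14 arrays of 8 genes with a lower response in KO, with genotype and minutes of FGF on the x axis; 1 point is 1 array and the line is the group mean. Cdca7, Mybl2, Pcna and Cdkn2b fell in KO with no called change in WT, whereas Ccl7 and Pcdh7 rose in WT with no called change in KO.

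In Pcdh7, Trib2, Efhd1 and Sh2d1b1 the WT response passed the test upward and the KO response did not pass. Pcdh7, a protocadherin, read 8.70, 8.80 and 8.76 in KO at 120 min, against 8.88, 9.01, 9.11 and 8.93 in KO at 0 min, and 7.81, 7.81 and 7.91 in WT at 120 min, against 7.35, 7.34, 7.29 and 7.30 in WT at 0 min. The gap between genotypes narrowed to 0.91 ± 0.09 at 120 min, against 1.67 ± 0.08 at 0 min (difference -0.76 ± 0.12, adjusted p = 3.30e-04). Trib2, a pseudokinase, responded by 0.81 ± 0.10 in WT, while its KO response of 0.21 ± 0.10 did not pass the test (difference -0.60 ± 0.14, adjusted p = 0.0151). Efhd1, a calcium-binding protein gene, was not well above background on any KO array at 120 min, where the WT level was at least 3.01-fold higher (fitted difference -1.14 ± 0.21, adjusted p = 0.00283; lost on the authors' processed values). Sh2d1b1, an SH2-domain adaptor, responded by 0.90 ± 0.11 in WT, and its responses differed by -0.83 ± 0.15 (adjusted p = 0.00208). Hes1, a repressor downstream of Notch, was the only called gene of 10 in the Notch list, at -0.73 ± 0.19 (adjusted p = 0.0404). Neither of its responses passed the test, at -0.36 ± 0.13 in KO and 0.36 ± 0.13 in WT. The call was lost without any of 9 single arrays, with the 14 arrays alone, on the authors' processed values and without a filter. Ddit4l, an inhibitor of mTORC1 signalling, fell in KO and was not well above background on any WT array (fitted difference -0.85 ± 0.14, adjusted p = 9.11e-04; lost on the authors' processed values).

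The difference at 120 min was set beside those at 60 and 240 min, which use the same 0 min arrays. The change of the gap between 2 times was tested without the 0 min arrays. Both changes still use the 120 min arrays, on which the called genes were chosen. That choice favours a widening before 120 min and a narrowing after it, so these tests are not separate evidence of a peak. Between 60 and 120 min the gap changed for 168 genes (1.54%), and between 120 and 240 min for 748 (6.86%). The fitted difference of the Csf2 responses read 1.21 at 60 min of FGF, 2.80 at 120 and 1.51 at 240. The gap of Csf2 widened between 60 and 120 min (adjusted p = 3.02e-04) and narrowed between 120 and 240 min (adjusted p = 0.0023). Socs3, at 0.07, 1.41 and 0.76, and Csrnp1, at -0.26, 1.40 and 0.29, showed the same order, and both steps passed the test for each (adjusted p from 1.56e-07 to 0.00442). Mmp10 did so too, at 0.28, 1.32 and 0.36 (adjusted p = 0.0189 and 0.0159).

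Among the other genes, the difference kept growing for S100a8 and Serpinb2. S100a8 had -0.08, 1.83 and 3.80, and Serpinb2 0.05, 1.23 and 3.19; the later step passed the test in both (adjusted p = 1.40e-08 and 5.42e-09). Lif and Il6 widened between 60 and 120 min (adjusted p = 1.43e-04 and 0.0248) and did not pass the test between 120 and 240 min (adjusted p = 0.0521 and 0.242). Ccn2, Mdm2 and Zfp41 changed sign. Ccn2 had -0.80, 0.78 and -0.42, and Mdm2 -0.66, 0.72 and -0.39. Zfp41, a zinc-finger gene, ran the other way, with 0.72, -0.73 and 0.22; with offset 50 its 120 min value was -0.33 and not called (adjusted p = 0.0653). Both steps passed the test for these 3 genes (adjusted p from 1.51e-07 to 7.01e-04). The difference of Edn1, the largest fall named, widened between 60 and 120 min (adjusted p = 0.0427). It stood at -1.26 at 120 min, where both genotypes were near the background, and at -1.25 at 240 min.

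**Figure D5:**
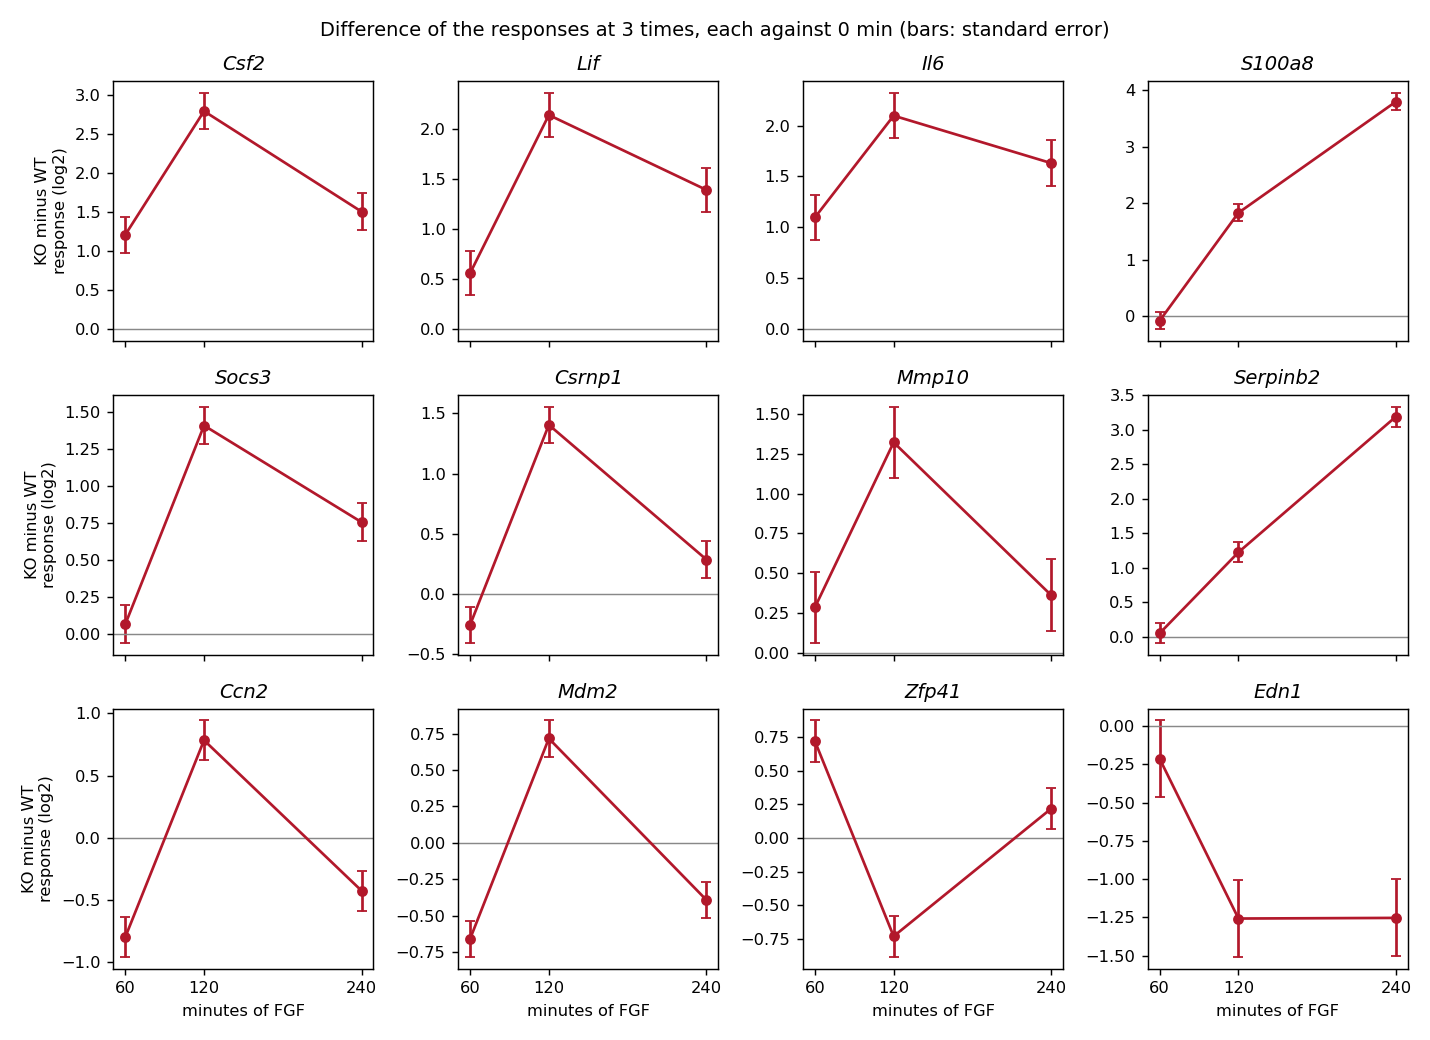
KO response minus WT response (y axis, log2, each time against 0 min) at 60, 120 and 240 min of FGF for 12 genes; bars are standard errors. Csf2, Lif, Socs3, Csrnp1 and Mmp10 are highest at 120 min, S100a8 and Serpinb2 are highest at 240 min, and Ccn2, Mdm2 and Zfp41 cross 0.

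Across all 42 gene lists, 527 of 746 listed genes were tested, of which 38 had a higher and 11 a lower response. Over all tested genes, 1.0% had a higher and 0.862% a lower response. The lists were chosen with earlier results of these data known, so these counts add no separate evidence. Among the lists, 18 had no called member. Those without one include Wnt ligands, receptors and antagonists, SRF and actin genes, extracellular matrix genes, semaphorins, and sterol and fatty acid synthesis genes. Of 22 genes tested from the 7 lists that mark cell types other than fibroblasts, Sox9 had a higher response (0.73 ± 0.16, adjusted p = 0.0127) and Gap43 a lower one (-0.61 ± 0.15, adjusted p = 0.0236). The Sox9 call was lost with scaling by the median of all probes, and the Gap43 call with the 14 arrays alone, with scaling by the median of kept probes, on the authors' processed values and without any of 6 single arrays. The number of called genes depends on single arrays. It was 125 without WT 120 min replicate B, 126 without WT 120 min replicate C and 135 without KO 120 min replicate A, and 90 of the calls, 63 higher and 27 lower, held in each of the 14 fits that left out 1 array. It also depends on scaling: 53.7% of calls were higher under quantile normalization, 3.34% of 2516 when arrays were scaled by the median of all probes, and 71.9% of 516 when scaled by the median of kept probes. Those 2 scalings moved the median difference over all genes to -0.27 and 0.08. Scaling by all probes gave smaller differences that were still called for Cish (0.72), Atf3 (0.72), Klf5 (0.67) and Junb (0.58). Offset 50 did so for Csf2 (1.80), Il6 (1.31), Mmp13 (1.01), Csf3 (0.72), Serpinb2 (0.61) and Flrt3 (0.61).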

How the data were processed

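The deposited table holds, per the file headers, an average bead intensity and a detection value for each of 25697 probes on each of 32 arrays; its 192 other per-sample columns (bead counts, spreads, minima and maxima) were not used. GenomeStudio 1.9.0 is the one tool named, per the submitters' processing notes, and the table is deposited as not normalized. The deposited detection column is a fraction between 0 and 1, read as 1 minus the detection p-value. The authors' own processed intensities, deposited as a second table whose columns share the same quantiles, served as an alternative on the log2 scale with values under 1 set to 1; how they were made is not stated there.

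Intensities were background-corrected by normexp with controls inferred from the detection p (offset 16), quantile normalized and log2 transformed with limma 3.58.1 in R 4.3.3. A probe was kept when its detection p was below 0.05 on at least 3 arrays (14716 probes). A gene is represented by its brightest kept probe. Of the probes, 23978 have 1 symbol in the platform annotation, 1719 have none and none has several; 862 of the 10903 tested features are unnamed probes. Means of 10 groups were fitted to all 32 arrays with lmFit and eBayes (22 residual degrees of freedom), and p-values were adjusted by Benjamini-Hochberg over all tested genes in each of 9 contrasts. The difference of responses was (KO 120 min minus KO 0 min) minus (WT 120 min minus WT 0 min). "At least" folds compare the mean of the brighter group with, per array of the other, the probe's value or the lowest detected value on that array, whichever is higher; they apply where the gene was detected on no array of that group. The fit and the calling of genes were tested on simulated gene-level values. Background correction, normalization, filtering and the choice of probes were not part of that simulation.

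Genes and lists were chosen with earlier results of these data known. The text takes its genes from a rule: the 15 largest called differences in each direction that held without any 1 array and were detected in all 4 groups, the 3 largest in each direction among genes undetected in at least 1 group, up to 4 called members of each list, and the Sprouty genes; exceptions are marked. Alternatives were a replicate block, the 14 arrays alone, 2 median scalings, the authors' values, offset 50, no filter, a stricter filter (detected on all arrays of at least 1 group), the mean of a gene's probes, an intensity trend, and leaving out each array in turn. The number of arrays limits the precision.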

Additional observations from a re-analysis of the deposited data

Results flagged for a closer look

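The response to 120 min of FGF differed between KO and WT by the test of the difference itself, upward for 109 genes and downward for 94.

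Among the 65 genes the text draws on, 130 groups of 4 arrays (KO at 0 min and WT at 0 min) were examined for an array that lies far from the other 3, and 6 were found; chance marks about 1 group in 20. Dazap2 read 11.54 on KO 0 min replicate A, against 11.50 to 11.51 on the other 3, a gap that is small in size. Gap43 read 4.46 on KO 0 min replicate C, against 4.86 to 4.92. In WT at 0 min, Clcf1 read 5.74 on replicate B, against 5.45 to 5.46. Atf3 read 7.10 on WT 0 min replicate C, against 6.48 to 6.58, and Ncl read 8.06 on that array, against 8.45 to 8.52. Irf1 read 10.42 on WT 0 min replicate D, against 10.55 to 10.56. Of these 6, the calls for Clcf1, Atf3 and Dazap2 held without any 1 array, a condition by which the rule chose them.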

How the results depend on the processing

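Of 63 called genes that the naming rule selects, none changed direction under any of the 10 alternatives or without any 1 array. The call was lost for 18 on the authors' values, 13 with the 14 arrays alone, 8 and 3 with scaling by the median of all and of kept probes, 7 with the mean of probes, 5 with the replicate block, 4 without a filter, 1 each with offset 50 and the intensity trend, none with the stricter filter, and 14 without some single array. The rule took its 15 largest differences in each direction only from calls that held without any 1 array. For those genes the result of leaving out single arrays was fixed by the choice, so the last count is not a test of them. Among all called genes, 63 of the 109 higher calls and 27 of the 94 lower calls held without any 1 array. Spry4, never called, turned to 0.026 with scaling by kept probes and 0.27 on the authors' values. The labels do not say whether the replicate letters pair the samples. Same-letter arrays of different groups had residual correlations from -0.19 to 0.11 (19 pairs, 2 above 0.1). Different-letter arrays had -0.14 to 0.18 (54 pairs, 6 above 0.1). These ranges overlap, and they cannot settle whether cultures or batches were shared. With the letter as a replicate block, 166 genes were called, 161 of them also called without it.

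The count of called differences (109 higher, 94 lower) became 126 with the 14 arrays alone (49 lower), 2516 with scaling by the median of all probes (2432 lower) and 516 with scaling by kept probes (371 higher, 145 lower). Under the last 2 scalings 143 and 175 of the original calls were among them. All-probe scaling gave 3889 for the KO response, 290 for the WT response, 213 for the difference at 60 min and 1242 for the gap change from 120 to 240 min, and kept-probe scaling gave 2547 for the KO response. Offset 50 gave 120 for the 60 min difference and 280 for the gap change from 60 to 120 min, and the intensity trend gave 120 for the 60 min difference; the cause was not tested. Leaving out 1 array gave 125 to 233 calls (73 to 119 higher, 49 to 114 lower), 1160 to 1514 for the KO response, 291 to 416 for the WT response, 4230 to 4428 for the gap at 120 min and 4615 to 4770 at 0 min. It gave 52 to 103 for the 60 min difference, 513 to 1076 for the 240 min difference, 114 to 165 for the gap change from 60 to 120 min and 337 to 1249 for that from 120 to 240 min; leaving out the arrays at 60 or 240 min was added after the data were seen. The lowest of these were without KO 0 min replicate D, KO 240 min replicate C, WT 120 min replicate C and KO 240 min replicate C. A slide block was not run, because the columns name no slides.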

Other observations

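Called genes outside the lists also had distinct roles; those given here were chosen after their values were seen. With a higher response in KO were Sphk1, the kinase that makes sphingosine 1-phosphate (0.93 ± 0.13, standard error, adjusted p = 9.75e-05), Angptl4, a secreted inhibitor of lipoprotein lipase (0.81 ± 0.18, adjusted p = 0.0112), and Mef2c, a MADS-box transcription factor (0.93 ± 0.16, adjusted p = 0.00159). Sphk1 rose in both genotypes, with responses of 1.73 in KO and 0.80 in WT. Ppp1r15a, a phosphatase subunit that acts on the initiation factor eIF2, had responses of 0.50 in KO and -0.41 in WT (0.92 ± 0.16, adjusted p = 0.00177).

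With a lower response in KO were Gata3, a zinc-finger transcription factor (-0.66 ± 0.13, adjusted p = 0.00607), and Gadd45g, a stress-induced growth arrest gene (-0.54 ± 0.11, adjusted p = 0.0087). At the threshold itself, the last called gene was Cited2, at 0.63 (adjusted p = 0.0499), and the first gene not called was Xpc, at -0.62 (adjusted p = 0.0503).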
